A study of Arabidopsis thaliana with 4 samples.

Results

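The calls described here are nucleosome calls of exceptionally high confidence score in the pericentromeres of Arabidopsis thaliana. They were chosen in each library's own list as the calls at most 2.5 Mb away from 15 Mb on chromosome 1, 3.6 Mb on chromosome 2, 14 Mb on chromosome 3, 4 Mb on chromosome 4 and 12 Mb on chromosome 5 that had a deposited confidence score of 5 or more, leaving out 3.14 to 3.41 Mb on chromosome 2. There were 1732 such calls among the 1253289 calls of all 4 libraries. The libraries came from inflorescences with unopened buds of top1a-2 plants, 2 replicates, and of Ler plants (Landsberg erecta, the ecotype given for all 4 libraries), 2 replicates. The top1a-2 plants carry a mutant allele of TOP1α, and Ler is the reference without it. Nuclei were digested with micrococcal nuclease, DNA of about mononucleosome length was cut from a gel, and nucleosomes were called in each library. The age of the plants and the number of plants behind a library are not stated in the labels, so a p-value here reflects only how these samples spread, and that spread may be technical. A list of nucleosome calls does not show the genotype, so the labels were not checked against the data.

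Micrococcal nuclease cuts the linker DNA between nucleosomes, and the fragments that survive mark where histones protected the DNA. Pericentromeres of Arabidopsis are heterochromatic and rich in transposons, and the centromeres within them consist mainly of a tandem satellite whose unit is about as long as a nucleosome with its linker. TOP1α is a topoisomerase I, which nicks 1 DNA strand to release supercoils, and is known from Arabidopsis flowers for its part in ending stem cell activity. The calls were proposed as repeat-like, but no sequence or repeat annotation on the build of the lists was used, so whether they lie in repeats was not tested, and they are called high-score calls here.

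One library stood apart. The high-score calls carried 5.23% and 10.1% of the summed score of all calls in top1a-2 replicates 1 and 2, against 4.78% and 5.85% in Ler replicates 1 and 2, although they made up only 0.134% and 0.166% of the calls for top1a-2, against 0.118% and 0.134% for Ler. Top1a-2 replicate 2 was thus far above the other 3 libraries, and the values that follow are given by library so that it can be told from top1a-2 replicate 1. The whole lists held 286541 to 335395 calls per library with a mean score close to 1, and the score is the caller's own value, so read depth is unknown. In the interval left out on chromosome 2, which is not described further, 447 and 340 calls of the top1a-2 replicates and 419 and 340 of the Ler replicates had a score of 5 or more.

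Both top1a-2 libraries held more high-score calls than both Ler libraries. There were 451 and 523 for top1a-2, against 374 and 384 for Ler, which is a ratio of means of 1.28. As a share of all pericentromeric calls they were 0.758% and 0.899% for top1a-2, against 0.636% and 0.695% for Ler. Without top1a-2 replicate 2 the ratio was 1.19. The score chose these calls, so their numbers are given as a description, with no test. At the same threshold the chromosome arms held 114 and 80 calls for top1a-2, against 98 and 65 for Ler, with overlapping genotypes, so that high-score calls were 18.3 and 28.9 times as frequent among pericentromeric calls as among arm calls for top1a-2, against 16.7 and 24.7 times for Ler. Just inside the threshold, with scores from 5 to under 5.5, lay 51 and 45 calls for top1a-2, against 45 and 48 for Ler. Just outside it, from 4.5 to under 5, lay 74 and 77 calls for top1a-2, against 55 and 42 for Ler.

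Chromosome 5 held the most high-score calls in every library, 135 and 178 for top1a-2, against 107 and 120 for Ler. Relative to its pericentromeric calls this was 1.11% and 1.499% for top1a-2, against 0.885% and 1.06% for Ler, above every other chromosome of the same library. By number, chromosome 4 followed in both top1a-2 libraries, with 91 and 104 calls for top1a-2, against 71 and 72 for Ler. By share, chromosome 3 followed in both, with 0.776% and 0.832%, above 0.708% and 0.830% on chromosome 4. Chromosome 3 held 88 and 93 calls for top1a-2 against 85 and 67 for Ler, and chromosome 2 held 71 and 76 against 62 and 62. Chromosome 1 held the fewest in 3 of the 4 libraries, 66 and 72 calls for top1a-2, against 49 and 63 for Ler. On each of the 5 chromosomes both top1a-2 libraries held more of these calls than both Ler libraries, most narrowly on chromosomes 1 and 3. As a share of pericentromeric calls, the genotypes overlapped on chromosome 1 and were apart on the others. On chromosome 1 the share was 0.605% and 0.668% for top1a-2, against 0.448% and 0.614% for Ler. The calls lay close to the assumed centromere midpoints: within 1 Mb were 77.4% and 82.8% of them for top1a-2, against 84.2% and 81.2% for Ler. Of the pericentromeric calls under the threshold, 33.4% and 33.7% for top1a-2 and 34.0% and 34.7% for Ler lay that close.

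**Figure D1:**
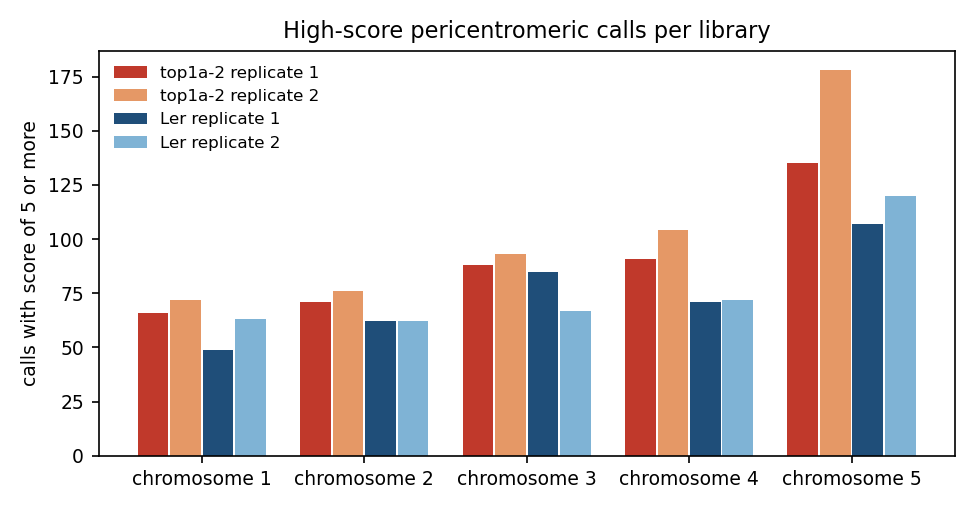
Number of calls with a score of 5 or more in the pericentromere of each chromosome (bars, from 0), for the 2 top1a-2 and the 2 Ler libraries. Chromosome 5 has the most in every library, and top1a-2 replicate 2 has the highest bar on each chromosome, up to 178.

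The scores reached far beyond those of the arms. The highest was 1624 and 3292 for top1a-2, against 1493 and 1839 for Ler, while the highest arm score was 157 and 109 for top1a-2, against 226 and 258 for Ler. The median score of the high-score calls was 13.4 and 14.9 times the arm median of the same library for top1a-2, against 14.5 and 13.9 times for Ler, so the typical call overlapped between the genotypes. It was the upper end that was heavier in top1a-2 replicate 2. Scores of 100 or more were given to 43 and 82 calls for top1a-2, against 33 and 42 for Ler.

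The highest call of all 4 libraries was the same one. It lay on chromosome 3 at 13408782 and 13408778 for top1a-2 and at 13408783 and 13408775 for Ler, a spread of 8 bp. Coordinates are those of the deposited lists, whose genome build no label or header names, and for that reason no gene annotation is attached to any position. Its deposited size was 13.3 and 13.7 bp for top1a-2, against 32.7 and 9.65 bp for Ler, far from the length of nucleosomal DNA. The call with the next highest mean level, on chromosome 4 at 3866788 and 3866795 for top1a-2 and 3866797 and 3866788 for Ler, had a size of 287.5 and 295 bp for top1a-2, against 296 and 287 bp for Ler. Its larger vote column held more than 90% of the votes in each library. Another, on chromosome 4, lay at 3919329 and 3919331 for top1a-2 and 3919330 and 3919331 for Ler, a spread of 2 bp, with scores of 362 and 729 for top1a-2, against 405 and 447 for Ler. These 3 calls are those with the highest mean level among positions that had exactly 1 high-score call of each library.

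The sizes of the high-score calls were unlike those of other calls. Their median was 96.4 and 90.4 bp for top1a-2, against 80.5 and 78.5 bp for Ler. Pericentromeric calls under the threshold had medians of 143.6 and 142 bp for top1a-2 and 143 and 141 bp for Ler. Sizes from 120 to 170 bp, around that of mononucleosomal DNA, were given to 14.9% and 12.2% of the high-score calls for top1a-2, against 9.09% and 11.5% for Ler. Among the calls under the threshold these sizes made up 65.1% and 67.0% for top1a-2, against 61.0% and 63.3% for Ler. Sizes near that of mononucleosomal DNA were thus the exception among the high-score calls and the rule among the others. Sizes under 50 bp were given to 35.5% and 34.2% of the high-score calls for top1a-2, against 38.2% and 40.1% for Ler, and sizes over 200 bp to 20.6% and 22.2% for top1a-2, against 22.5% and 22.7% for Ler. The high-score calls of the arms, far fewer in number, had medians of 143 and 112 bp for top1a-2, against 128 and 119 bp for Ler. Among them, too, sizes of 120 to 170 bp were uncommon, with 19.3% and 15% for top1a-2, against 22.4% and 18.5% for Ler, so this feature was shared by high-score calls of the arms.

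**Figure D2:**
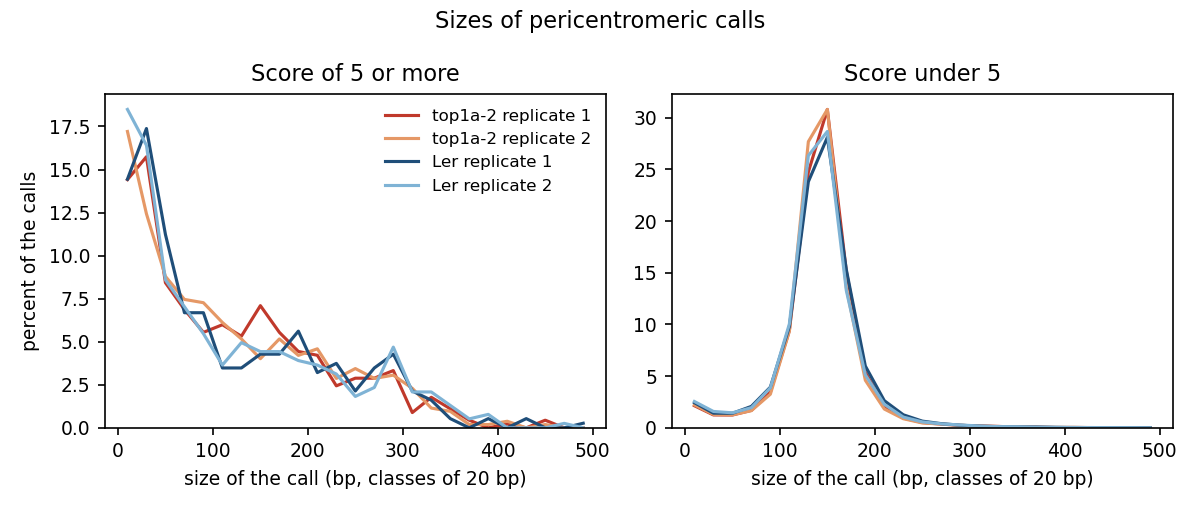
Percent of calls in each 20 bp class of size (x axis, bp) for pericentromeric calls with a score of 5 or more (left) and under 5 (right), 1 line per library; the y axes differ. Calls under 5 peak near 143 bp in all libraries, while high-score calls are most frequent below 50 bp.

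Between the genotypes, the median size relative to the arm calls of the same library was -48.4 and -52.5 bp for top1a-2, against -64.4 and -64.2 bp for Ler. The mean difference of 13.8 bp (top1a-2 minus Ler) exceeded the spread within either genotype, with -50.4 ± 2.91 bp for top1a-2, against -64.3 ± 0.166 bp for Ler (SD, n = 2 each; exact two-sided permutation p = 0.333). With 2 libraries against 2, that is the smallest p the exact test allows, so no such comparison could pass a threshold of 0.05. The difference did not hold at a threshold of 8, where it was -0.900 bp, nor with the interval on chromosome 2 kept, where it was -5.69 bp. In the lowest class of score, from 5 to under 10, sizes of 120 to 170 bp made up 24.9% and 23.9% of calls for top1a-2, against 11.1% and 17.5% for Ler. At scores of 50 or more they made up 3.66% and 2.14% for top1a-2, against 1.43% and 1.22% for Ler.

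Fuzziness, the caller's measure of the spread of a position, was more varied among high-score calls than among other calls. Its median was 38 and 38 bp for top1a-2, against 37 and 36 bp for Ler, close to that of pericentromeric calls under the threshold, which was 38 and 39 bp for top1a-2 and 39 and 40 bp for Ler. Calls with a narrow position (fuzziness at most 25 bp) were 27.9% and 27.9% of the high-score calls for top1a-2, against 31.6% and 32.0% for Ler. Of the calls under the threshold they were 13.7% and 11.8% for top1a-2, against 10.8% and 10.4% for Ler. At the other end, a fuzziness over 60 bp was given to 9.31% and 10.1% of the high-score calls for top1a-2, against 8.82% and 10.2% for Ler, and to 1.97% to 2.26% of the calls under the threshold in any library. Narrow high-score calls were thus less frequent in each top1a-2 library than in either Ler library, the opposite order from the calls under the threshold. Relative to the arm median, fuzziness was -1 and -1 bp for top1a-2, against -3 and -4 bp for Ler, a difference of 2.5 bp without overlap (exact permutation p = 0.333).

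The votes, which the caller gives in a forward and a reverse column, were more one-sided than for calls under the threshold or in the arms. The larger column held a median of 74.0% and 72.0% of a call's votes for top1a-2, against 76.5% and 74.1% for Ler. For arm calls that median was 63.7% and 60.7% for top1a-2 and 63.0% and 59.4% for Ler, and for the high-score calls of the arms 69.6% and 67.4% for top1a-2 and 67.8% and 61.1% for Ler, between those of all arm calls and of the pericentromeric high-score calls. More than 90% of the votes stood in 1 column in 24.6% and 20.8% of the high-score calls for top1a-2, against 29.1% and 27.1% for Ler. For pericentromeric calls under the threshold this share was 9.78% and 7.92% for top1a-2, against 9.21% and 7.96% for Ler. The forward column was the larger in somewhat more of the high-score calls than the reverse column in every library, 51.7% and 54.3% for top1a-2, against 55.6% and 56.5% for Ler. Under the threshold it was the larger in 50.6% and 50.6% for top1a-2, against 50.8% and 50.7% for Ler. Relative to arm calls, the median share of the larger column was 10.3 and 11.3 percentage points higher for top1a-2, against 13.5 and 14.7 points higher for Ler, a difference of -3.23 points without overlap (exact permutation p = 0.333), and of 0.492 points with the interval on chromosome 2 kept. After Benjamini-Hochberg adjustment over the 5 comparisons of this kind, the lowest value of the exact permutation tests was 0.556.

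High-score calls, in the arms as well, recurred between libraries more often than calls under the threshold or arm calls as a whole. Averaged over the 3 other libraries, 44.8% and 43.7% of the high-score calls of the top1a-2 replicates and 45.0% and 43.1% of those of the Ler replicates had a call of another library within 20 bp. For pericentromeric calls under the threshold the share was 24.6% and 24.7% for top1a-2, against 24.6% and 25.6% for Ler. For the high-score calls of the arms it was 37.1% and 37.5% for top1a-2, against 39.5% and 28.7% for Ler, and for all arm calls 21.9% and 22.4% for top1a-2, against 22.2% and 23.3% for Ler. The pericentromeric genotypes overlapped in this measure (difference of 0.192 percentage points, exact permutation p = 1). From the threshold up the share grew with the score: at scores of 5 to under 10 it was 35.1% and 33.2% for top1a-2, against 31.9% and 33.7% for Ler, and at scores of 50 or more 65.9% and 58.1% for top1a-2, against 67.6% and 61.4% for Ler. Below the threshold it fell with the score in every library, and scores under 1 had 24.9% and 25.5% for top1a-2, against 25.1% and 27.2% for Ler. At 2 to under 5, the class with the lowest share, it was 22.9% and 21.2% for top1a-2, against 21.8% and 20.0% for Ler. Recurrence was no higher within a genotype than between genotypes. The share of high-score calls with a call of the paired library was 43.7% and 41.7% between the top1a-2 replicates and 41.2% and 40.1% between the Ler replicates, depending on the library counted from. Between top1a-2 and Ler libraries of the same replicate number it was 45.8% to 49.7%, and of different numbers 43.0% to 44.1%.

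**Figure D3:**
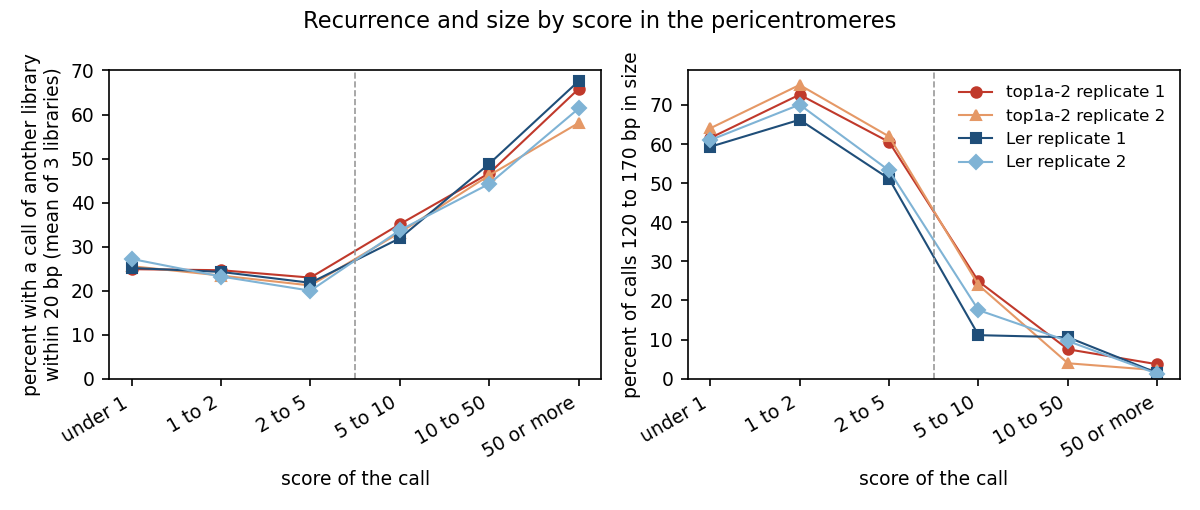
Pericentromeric calls by class of score (x axis, 6 classes; the dashed line marks the threshold of 5), 1 line per library. Left, percent with a call of another library within 20 bp, between 58.1% and 67.6% at scores of 50 or more; right, percent with a size of 120 to 170 bp, between 1.22% and 3.66% in the same class.

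Grouped by position within 20 bp, the high-score calls of the 4 libraries fell into 1080 sites. Of these, 93 had a high-score call in all 4 libraries, 94 in 3, 185 in 2 and 708 in only 1. The single-library sites numbered 181 and 250 for top1a-2, against 135 and 142 for Ler. The libraries held 451 and 523 high-score calls in all for top1a-2, against 374 and 384 for Ler. No share over all calls was computed for the single-library sites. Compared with single-library sites, the sites found in all 4 libraries had smaller sizes, narrower positions and higher scores. Their median size was 34.5 and 32.1 bp for top1a-2, against 33.1 and 38.6 bp for Ler, whereas at single-library sites it was 123 and 128 bp for top1a-2 and 131 and 126 bp for Ler. Their median fuzziness was 19 and 21 bp for top1a-2, against 18 and 21 bp for Ler, whereas at single-library sites it was 42 and 41 bp for top1a-2 and 41 and 41 bp for Ler. Their median score was also higher, 35.8 and 77.3 for top1a-2, against 34.9 and 37.5 for Ler, whereas at single-library sites it was 6.45 and 7.40 for top1a-2 and 7.55 and 7.33 for Ler. Score and recurrence were not separated here, and no such medians were computed for sites in 2 or 3 libraries.

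High-score calls came in blocks, defined as runs of such calls of 1 library with at most 5 kb between neighbours. There were 112 and 98 blocks for top1a-2, against 76 and 82 for Ler, a ratio of means of 1.33. Blocks of a single call were 58 of 112 and 44 of 98 for top1a-2, against 36 of 76 and 35 of 82 for Ler. As a share of the blocks of a library they overlapped between the genotypes. Blocks of 10 or more calls numbered 14 and 21 for top1a-2, against 13 and 12 for Ler, and they held 57.0% and 71.3% of the high-score calls for top1a-2, against 64.4% and 58.6% for Ler. Top1a-2 replicate 1 thus had more blocks but a smaller share of its calls in large ones than top1a-2 replicate 2. The largest block of a library held 38 and 42 calls for top1a-2, against 45 and 41 for Ler.

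Inside blocks the spacing covered a wide range, and the genotypes overlapped. The median distance between neighbouring high-score calls up to 500 bp apart was 276 and 285 bp for top1a-2, against 267 and 289.5 bp for Ler (difference of 2.25 bp, exact permutation p = 1). Of all neighbour distances in blocks, 7.96% and 10.4% for top1a-2 and 10.1% and 12.3% for Ler were from 150 to under 200 bp. Distances from 200 to under 300 bp made up 19.2% and 17.9% for top1a-2, against 22.5% and 16.6% for Ler, and distances over 500 bp 41.9% and 43.3% for top1a-2, against 40.6% and 39.7% for Ler. No single spacing prevailed. To the next call of any score, the median distance was 376 and 364 bp from high-score calls for top1a-2, against 353 and 371.5 bp for Ler. From pericentromeric calls under the threshold it was 320 and 332 bp for top1a-2, against 333 and 356 bp for Ler. A next call under 200 bp away followed 13.7% and 16.1% of high-score calls for top1a-2, against 15.2% and 16.1% for Ler. Under the threshold this share was 12.7% and 11.1% for top1a-2, against 10.5% and 9.64% for Ler. Distances in blocks were not set beside the full range for calls under the threshold.

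To compare the blocks between libraries, the high-score calls of all 4 were pooled and joined in the same way. This gave 124 blocks, of which 59 held a high-score call of every library, 13 of 3 libraries, 23 of 2 and 29 of 1. The 29 were small, with levels of up to 23.8 in the 1 library concerned, and all but 1 of them were in a top1a-2 library (16 in replicate 1 and 12 in replicate 2, against 0 in Ler replicate 1 and 1 in Ler replicate 2). A block missing from a library had no call there with a score of 5 or more, which does not mean that its scores were low. Top1a-2 also held more high-score calls in all, 451 and 523 against 374 and 384 for Ler. No share over all calls was computed for this count. Level here means the summed score of the high-score calls in a block divided by the median score of the arm calls of the library. The 59 blocks found in every library were spread over all chromosomes, with 12, 12, 9, 13 and 13 on chromosomes 1 to 5, and had a median span of 3048 bp. Below, blocks are numbered within each chromosome from the highest mean level down.

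The 5 highest blocks carried 62.2% and 63.5% of the summed level for top1a-2, against 67.0% and 67.2% for Ler, with 19.7% and 17.8% of the high-score calls for top1a-2, against 25.9% and 24.0% for Ler. Block 1 of chromosome 3, from 13403864 to 13409153, holds the highest call of all. Its level was 3404 and 7753 for top1a-2, against 2727 and 3585 for Ler, so that top1a-2 replicate 1 lay between the Ler libraries. In all 4 libraries every call in the block, 11 and 13 for top1a-2, against 11 and 11 for Ler, was a high-score call, and none had a size of 120 to 170 bp.

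Block 1 of chromosome 5, from 11555948 to 11570946, held 38 and 42 high-score calls for top1a-2, against 45 and 41 for Ler, the most of any block. Its level was 3382 and 7465 for top1a-2, against 2912 and 3277 for Ler, with top1a-2 replicate 1 just above the Ler libraries. Block 1 of chromosome 4, from 3863734 to 3869192, had levels of 2619 and 5110 for top1a-2, against 2111 and 2484 for Ler, in the same order. Block 1 of chromosome 1, from 14890569 to 14894599, had levels of 1510 and 3732 for top1a-2, against 1370 and 1719 for Ler, with top1a-2 replicate 1 between the Ler libraries.

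Block 2 of chromosome 3, from 14012485 to 14019653, was the exception among the 5. Its level was 2507 and 1857 for top1a-2, against 2748 and 2501 for Ler, so the library that was highest in the other 4 blocks was lowest here. Its log2 ratio of top1a-2 to Ler was -0.27, and the genotypes overlapped. In the 9 highest blocks together 80.4% of all calls of the 4 libraries were high-score calls, and 5.56% of these had a size of 120 to 170 bp.

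**Figure D4:**
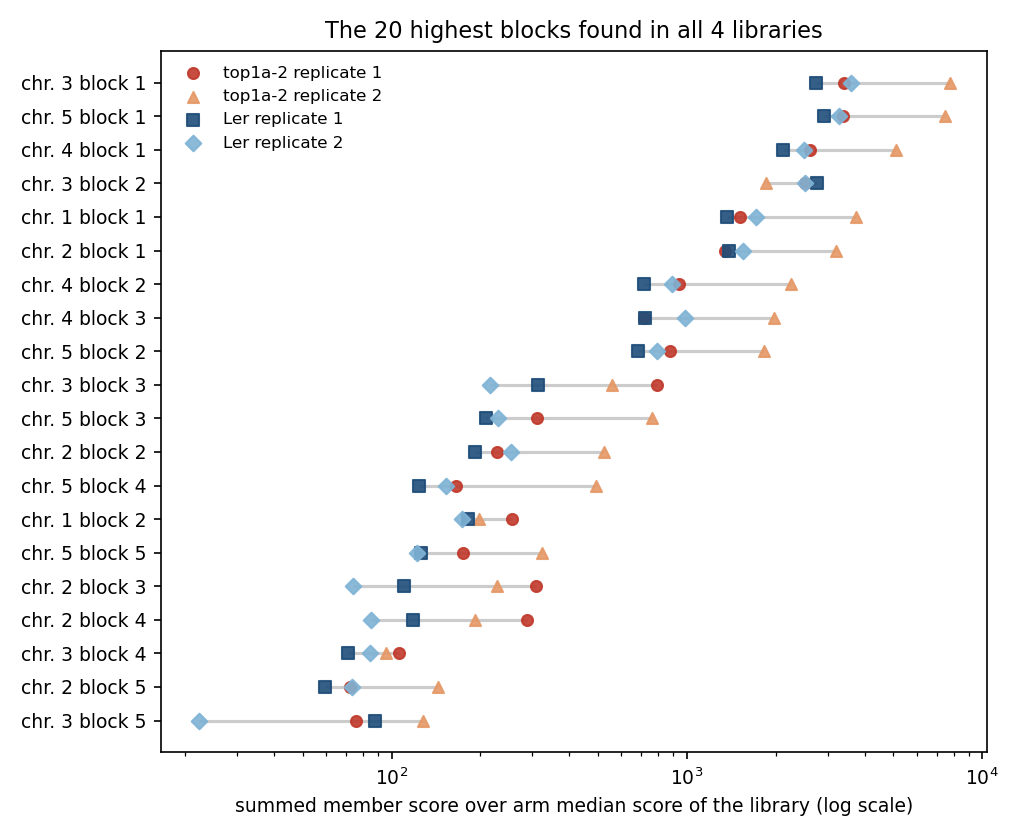
Level of the 20 highest blocks found in all 4 libraries (x axis, log scale, summed score over the arm median score), 1 point per library, with a grey line from the lowest to the highest. Top1a-2 replicate 2 is apart to the right in most of the highest blocks, from 7753 in block 1 of chromosome 3, and lowest, at 1857, in block 2 of chromosome 3.

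Over the 59 blocks the median log2 ratio of the top1a-2 mean to the Ler mean was 0.81, with quartiles of 0.38 and 1.25, and 55 blocks were above 0. The median was 0.30 with top1a-2 replicate 1 alone, with 45 blocks above 0, and 1.11 with top1a-2 replicate 2 alone, with 49 above 0. The replicates of top1a-2 differed by as much as the genotypes did. The median log2 ratio of replicate 2 to replicate 1 was 0.88 for top1a-2, against 0.22 for Ler. Replicate 2 was above replicate 1 in 35 of the 59 blocks for top1a-2 and in 38 for Ler. By chromosome the median log2 ratio of top1a-2 to Ler was between 0.69, on chromosome 1, and 0.83, on chromosome 2. When each library was divided by its own median over the 59 blocks, which brings the median ratio close to 0 by construction (-0.012), both top1a-2 libraries were above both Ler libraries in 2 blocks and below in 10.

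Both top1a-2 levels were above both Ler levels in 28 of the 59 blocks, and both were below in 1. This has to be read against the scaling. Division by the arm median score, which was 0.826 and 0.788 for top1a-2, against 0.863 and 0.843 for Ler, raised top1a-2 over the whole genome. Among all 11651 windows of 10 kb with calls, 55.1% had a summed score in both top1a-2 libraries above both Ler libraries and 0.695% below. Of pericentromeric windows without a high-score call, 38.5% were above and 1.73% below. The median log2 difference over all windows was 0.13. Before this division it was 0.055, so part of the difference was present in the deposited scores. With scores as deposited, 26 of the 59 blocks were higher and 2 lower in top1a-2, against 18.4% and 3.85% of all windows. With scores over the median window level of the library, a scaling added after the data were seen, 17 were higher and 2 lower, against 18.5% and 13.9% of all windows. Block levels sum only high-score calls and windows sum all calls, so these shares are not of like measures. The 74 windows with a high-score call in all 4 libraries were chosen by the same score. Top1a-2 was higher in 71.6% of them over the arm median, 52.7% as deposited and 37.8% over the median window level. It was lower in 0%, 1.35% and 1.35%.

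The blocks differed in the order of the libraries. In 12 of the 59 blocks the order from high to low was top1a-2 replicate 1, top1a-2 replicate 2, Ler replicate 1, Ler replicate 2, the only order of more than 3 blocks in which top1a-2 replicate 2 was not the highest. In these 12 the median log2 ratio was 1.22 between the libraries numbered 1 and 1.31 between the libraries numbered 2 (top1a-2 over Ler in each), and the median distance from the assumed midpoint was 1111 kb. In 12 others the order was top1a-2 replicate 2, top1a-2 replicate 1, Ler replicate 2, Ler replicate 1, with median log2 ratios of 0.41 and 1.20 for libraries 1 and 2 and a median distance of 302 kb. Both groups were picked out after their values were seen, so they are a description. Block 3 of chromosome 3, from 13357017 to 13364297, is the highest of the first kind, with a level of 792 and 557 for top1a-2, against 314 and 216 for Ler. Block 3 of chromosome 2, from 3087764 to 3090796, had levels of 307 and 228 for top1a-2, against 110.5 and 74.1 for Ler.

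**Figure D5:**
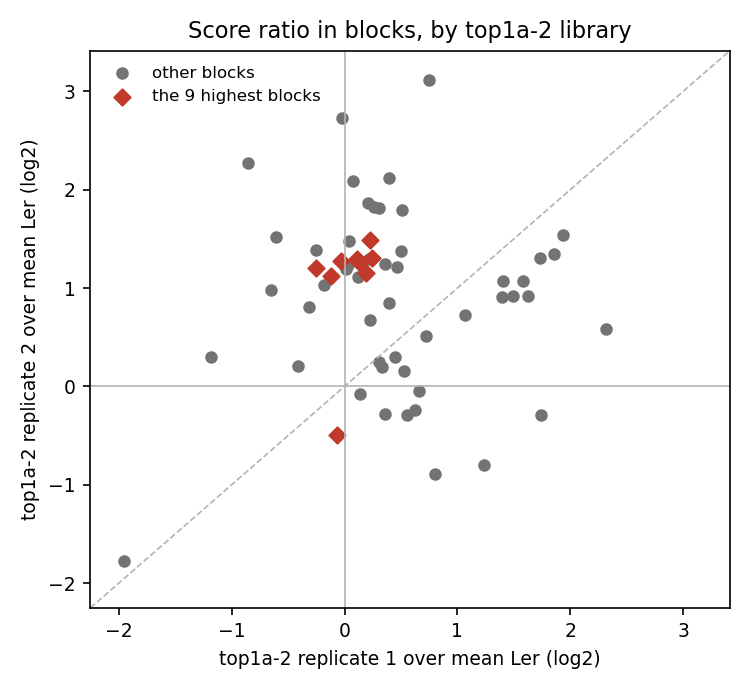
For each of the 59 blocks, log2 of the level in top1a-2 replicate 1 (x axis) and in top1a-2 replicate 2 (y axis) over the mean of the Ler libraries; the dashed line marks equal ratios. The 9 highest blocks (red) lie between -0.25 and 0.24 for replicate 1 and between 1.12 and 1.49 for replicate 2, except block 2 of chromosome 3, which lies below 0 on both axes. The next block by mean level, block 3 of chromosome 3, has 1.58 for replicate 1 and 1.07 for replicate 2.

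The largest log2 ratios of top1a-2 to Ler among the 59 blocks were in block 6 of chromosome 5, block 8 of chromosome 2 and block 7 of chromosome 3. Block 6 of chromosome 5, from 11619117 to 11626403, had a level of 25.1 and 129.6 for top1a-2, against 6.57 and 23.4 for Ler (log2 ratio of 2.37, and 0.75 without top1a-2 replicate 2). It held 3 and 12 high-score calls for top1a-2, against 1 and 3 for Ler. Block 8 of chromosome 2, from 3614341 to 3616239, rested on top1a-2 replicate 2, with 7.55 and 50.9 for top1a-2, against 6.51 and 8.84 for Ler (log2 ratio of 1.93, and -0.02 without top1a-2 replicate 2). Block 7 of chromosome 3, from 16029729 to 16029901, had 34.6 and 26.2 for top1a-2, against 9.50 and 8.56 for Ler. To its log2 ratio of 1.75 both top1a-2 libraries contributed. With all calls summed in windows of 10 kb, which also take in calls outside the blocks, the log2 changes were smaller. They were 0.49 and 0.87 in the windows with block 6 of chromosome 5. With block 8 of chromosome 2 the change was 0.46, and with block 7 of chromosome 3 it was 0.58. The smallest ratio was in block 7 of chromosome 1, from 16628056 to 16631905, with a log2 ratio of -1.86. It was the 1 block in which both top1a-2 libraries were lower, with 7.41 and 8.39, against 20.2 and 37.1 for Ler. It held 1 and 1 high-score calls for top1a-2, against 3 and 5 for Ler. With all calls summed, this order was not kept. From 16620001 to 16630000 the summed score over the arm median was 55.2 and 50.5 for top1a-2, against 48.9 and 42.4 for Ler. From 16630001 to 16640000 it was 40.1 and 39.1 for top1a-2, against 41.4 and 38.9 for Ler. Next came block 2 of chromosome 3, above, and block 6 of chromosome 3, from 14084956 to 14094609. Block 6 had 29.3 and 81.5 for top1a-2, against 75.8 and 56.9 for Ler (log2 ratio of -0.26), where the genotypes overlapped. With all calls summed, the windows from 14080001 to 14090000 and from 14090001 to 14100000 had log2 changes of 0.23 and 0.18. In the window with block 2, from 14010001 to 14020000, the log2 change was -0.28.

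Summed scores of all calls were then compared in the 11651 windows by limma. The same score chose the high-score calls, so the counts of their windows are a description and not support for a difference. In all, 16 windows, or 0.137% of all, passed an adjusted p of 0.05, all with higher scores for top1a-2. Of the 160 windows with a high-score call in any library 10 passed, and of the 74 with one in all 4 libraries 8 passed. In the windows of the highest levels the fitted standard error was far larger than the log2 change. It was 33.9 for a change of 0.72 on chromosome 3 from 13400001 to 13410000. On chromosome 4 from 3860001 to 3870000 it was 15.1 for a change of 0.67. Such windows could hardly pass whatever their levels, so the counts do not cover the highest blocks. The median log2 change was 0.48 in these 74 windows, 0.12 in the 2258 pericentromeric windows with none, and 0.13 over all windows. Without top1a-2 replicate 2 it was 0.25 in the 74 windows and 0.17 over all, and without top1a-2 replicate 1 it was 0.75 and 0.08. At an unadjusted p under 0.05 stood 53 of the 74 windows and 20.6% of all windows. The number that passed depended on the settings. With scores as deposited it was 46 of the 160 windows, beside 87 of all 11651. Over the arm mean score it was 63 of the 160, beside 116 of all. Without the variance trend it was 0 of the 160 and 0 of all. There 72 of the 160 had an unadjusted p under 0.05 in limma, a number that was not computed over all windows. The number also moved when 1 library was left out, a fit in which 1 genotype has no spread of its own.

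The levels of the 5 windows with a high-score call that had the smallest p-values are given as a description, with no test, since the score that chose the calls also makes up the sums. On chromosome 2, from 3080001 to 3090000, which holds part of block 3, the summed score over the arm median was 192 and 143 for top1a-2, against 61.7 and 64.8 for Ler (log2 change of 1.35). On chromosome 5, from 11590001 to 11600000, it was 119.9 and 141 for top1a-2, against 68.9 and 69.7 for Ler (log2 change of 0.88). On chromosome 4, from 3870001 to 3880000, it was 242 and 448 for top1a-2, against 99.0 and 104 for Ler (log2 change of 1.67). In each of these 3 windows the replicates of Ler were close together, and both top1a-2 libraries lay above them. The window on chromosome 3 from 16020001 to 16030000, with block 7, had 62.2 and 55.4 for top1a-2, against 40.9 and 35.8 for Ler (log2 change of 0.58). The window on chromosome 2 from 3090001 to 3100000, with the end of block 3, had 122 and 91.0 for top1a-2, against 56.7 and 37.5 for Ler (log2 change of 1.14).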

How the data were processed

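Micrococcal nuclease sequencing was done on inflorescences in 2 top1a-2 and 2 Ler libraries. Each call has a position, fuzziness, size, confidence score and votes in 2 columns (forward, reverse), per the file headers. The deposited score and votes are the caller's values, are not whole numbers and have an unknown scaling; no label or header names the aligner, caller or build (not given in the sources used here). On every chromosome the last calls lay 356 to 439 kb before the last gene of the table of TAIR10.1, so gene positions were not used.

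The members, midpoints, lists and tests were chosen with earlier results of these data known. Arms are all calls more than 2.5 Mb from the midpoints. Single values were compared by the exact two-sided permutation test. Windows of 10 kb were kept if at least 2 libraries had a call in them, and log2(level + 3.08) was fitted with limma (version 3.58.1, R 4.3.3, variance trend), which understates changes of low windows; p-values were adjusted over all windows.

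Blocks were named by rule: the 5 of highest mean level, the 3 largest and 3 smallest log2 ratios among blocks found in all libraries, and the windows that passed (at most 5 per direction). Blocks 3 of chromosomes 2 and 3 and the 3 highest calls were named after their values were seen. The rule did not set the cut at the 9 highest blocks. Alternatives were other thresholds, widths, block distances, tolerances, scalings, pseudocounts and filters, and leaving out each library.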

Additional observations from a re-analysis of the deposited data

How the results depend on the processing

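Of 110 alternatives 70 kept the direction or stayed near the value, 27 moved and 13 turned it; no single value could pass its exact test. Keeping the interval on chromosome 2 gave a ratio of call numbers of 1.16 (1.28 without it), and turned the differences in spacing to -4.25 bp, in size to -5.69 bp and in vote balance to 0.492 points. Setting the threshold at 5 times the arm median gave ratios of 1.42 in call number and 1.47 in blocks (1.33) and a recurrence difference of -0.732 points. Recurrence was also below 0 with a threshold of 4 (-0.179), 1.5 Mb (-0.172) and 10 bp (-0.980), and size with a threshold of 8 (-0.900 bp). Without 1 library at a time, call number was 1.19 to 1.38 times, block number 1.24 to 1.42 times, spacing -9 to 13.5 bp, size 11.8 to 15.9 bp, fuzziness 2 to 3 bp, vote balance -3.83 to -2.64 points, recurrence -2.86 to 1.84 points and the log2 score ratio, with blocks found anew, 0.26 (without top1a-2 replicate 2) to 1.11. Fuzziness, size and vote balance, whose genotypes were apart, could not turn in this way. Dividing by the library median over the blocks (added after the data were seen) turned the ratio to -0.012, by construction close to 0.

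Windows that passed limma numbered 16, of which 10 held a high-score call. They numbered 87 and 46 with scores as deposited, 116 and 63 over the arm mean, 9 and 5 over the median window level (added), 2 and 2 with the larger pseudocount, 7 and 4 in windows of 5 kb, and 0 and 0 with no filter and without the variance trend, where 72 windows with a high-score call had an unadjusted p under 0.05 in each (not counted over all windows). Without 1 library they numbered 2 to 467 and 2 to 80, the lone library being assumed to vary like the other genotype. With the replicate number as a block they numbered 6252 and 136. The labels tie libraries of like number by nothing else, while their deviations correlated with r = 0.49 across all windows and r = 0.76 across windows with a high-score call. In every case the cause was not tested. Unknown depth limits all values.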
